A study of Homo sapiens with 6 samples.

Results

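Mitochondrial ribosomal protein genes encode the protein part of the ribosome inside mitochondria. They were taken as the protein-coding genes whose symbol is MRPL or MRPS followed by a digit, and 78 of the 62700 genes counted met this rule, 49 MRPL and 29 MRPS. RNA was sequenced from OVCAR8, an established human ovarian carcinoma cell line. Every culture was first kept without serum overnight. The leptin group then received leptin, a hormone made by fat cells, at 100 ng/ml for 24 h, and was sequenced as 3 libraries. The control group received PBS and was also sequenced as 3 libraries. The comparison asked which transcripts differ after leptin.

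The mitochondrial ribosome makes the few proteins encoded by mitochondrial DNA, which are core subunits of the respiratory chain and ATP synthase. Its ribosomal RNAs are transcribed in the mitochondrion, whereas all of its proteins are encoded in the nucleus, made in the cytosol and imported. MRPL proteins belong to the large subunit, which joins amino acids, and MRPS proteins to the small subunit, which reads the messenger RNA. Some have a bacterial counterpart, and others were gained in the mitochondrial lineage. The numbering does not always give the place: MRPS30 and MRPS18A lie in the large subunit, and the protein of MRPS36 is now known as a component of the 2-oxoglutarate dehydrogenase complex.

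Between 15609425 and 18577775 read pairs were counted per library, and 427039 of all counted pairs fell on the 78 genes. Whether the replicates were separate cultures is not stated in the labels, and p-values here speak of library-to-library spread, which may be technical. Leptin replicate 1 stood apart. On the first principal component, which held 49.6% of the variance, it lay at -2.15, while leptin replicates 2 and 3 lay at 46.3 and 39.6 and the controls between -31.0 and -23.6. Of 8 markers of ovarian carcinoma epithelium, KRT8, KRT18, KRT7, KRT19 and PAX8 were detected well in each library. EPCAM lay between 3.43 and 6.11 CPM (counts scaled to library size), WT1 between 1.96 and 4.01 CPM, and MUC16 held 15 counts in all. KRT19 fell to 38.2, 38.02 and 39.8 CPM in leptin replicates 1 to 3, against 100.2, 113 and 93.7 CPM in control replicates 1 to 3 (log2 fold change -1.40, edgeR adjusted p = 0.000139). The 5 immune markers summed to between 0.18 and 0.46 CPM in leptin libraries and between 0.19 and 0.30 CPM in controls, with PTPRC and CD3E at 0. The 5 fibroblast markers, mostly COL1A1, summed to between 357 and 520.0 CPM in leptin libraries and between 460 and 656 CPM in controls. The part of these markers in the results was not tested. No read pair was counted on the 37 genes of the mitochondrial chromosome, so the ribosomal RNAs of the same particle, MT-RNR1 and MT-RNR2, were not measured.

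The genes were expressed over a wide range of levels. Scaled per length and library (TPM), their median level was 77.9 TPM over the 6 libraries, with 33 genes above 100 TPM and 9 below 10 TPM. MRPL41, a large-subunit protein without a bacterial counterpart, had the highest level, 579 TPM with a range of 492 to 775 TPM over libraries. Next came MRPL14 at 417 TPM, a protein shared with bacteria that lies at the subunit interface, and then 3 mitochondria-only proteins, MRPS26 at 411 TPM, MRPL37 at 376 TPM and MRPS34 at 357 TPM. The ranges of these 4 over the libraries overlapped. That of MRPL41 also overlapped those of MRPL14 (359 to 527 TPM) and MRPS26 (364 to 501 TPM). The order of these genes, the first place included, is therefore not set beyond the spread. At the low end stood MRPS5 at 4.85 TPM, MRPS24 at 3.11 TPM, MRPL46 at 2.53 TPM and MRPS25 at 2.14 TPM. MRPS25 and MRPS5 were counted over long merged exons of 18309 and 13738 bases, and MRPS24 rested on 205 read pairs in all, which lowers the first 2 levels per length and the precision of the last.

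MRPL53 was the member that could not be tested, with 0 counts in every library, where 3 counts were taken as the limit that a count of 0 allows. Of its exon bases, 99.4% are shared with other genes, among them CCDC142, and read pairs over several genes had not been counted. Sharing of this kind was common: 41 members shared exon bases with another gene, 30 of them with a gene on the opposite strand, and in 13 the shared part exceeded 25%. Counts of these members cover the unshared part of the gene, whereas TPM divides by the full exon length. Their TPM levels can therefore be too low, as for MRPL12 (69.5% shared), MRPS25 (45.85% shared) and MRPS34 (31.2% shared).

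**Figure D1:**
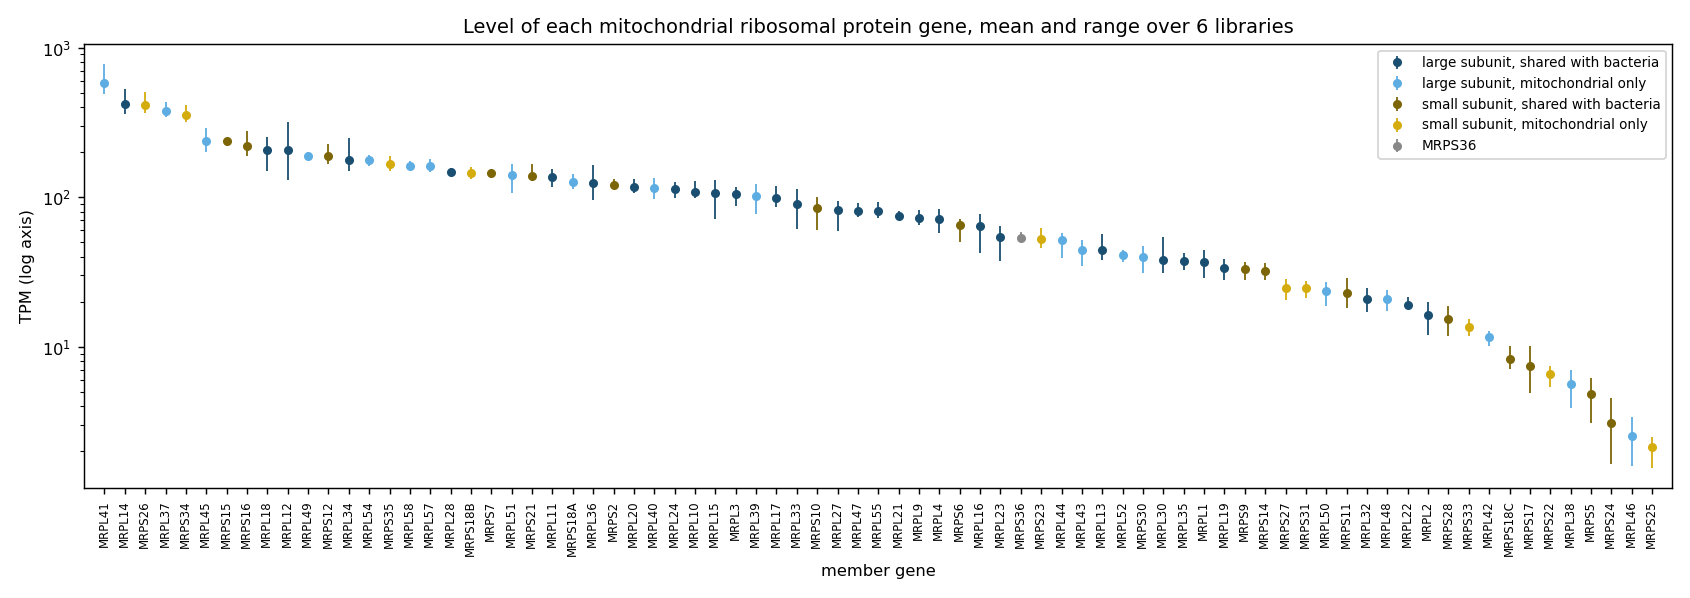
Mean level in TPM (log axis) of each of the 77 members with counts, ordered from high to low, with lines for the lowest and highest of the 6 libraries and colours for subunit and class. Levels run from 579 TPM for MRPL41 to 2.14 TPM for MRPS25 and the classes are interleaved.

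After 24 h of leptin, few transcripts of this family differed from control levels by more than the spread between libraries. Of the 77 tested genes 1 passed the threshold, MRPL18, which was lower with leptin, and 0 were higher (edgeR's quasi-likelihood test, Benjamini-Hochberg adjusted p under 0.05 over all genes). That is 1.30% of the members, where 9.81% of all tested genes passed, 5.71% higher and 4.09% lower. With p left unadjusted, 10 members lay under 0.05, or 12.99% against 27.6% of all genes. These were 6 higher and 4 lower, where 15.4% and 12.2% of all genes were. DESeq2 called 2 members, MRPL18 lower and MRPS16 higher, where it called 14.2% of all genes, and limma-voom called 0, where it called 8.39%. Upper-quartile scaling gave 0 members and 9.74% of all genes, and no filter on low counts gave 4 members and 7.42%. The median log2 fold change, leptin over control, was -0.06 for the members and 0.01 for all tested genes. In absolute size the median was 0.14 for the members and 0.25 for all genes.

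The intervals of the main analysis give precision against the spread between libraries, and do not cover shifts from the processing. After removal of each library's GC trend (given below), for example, MRPL41 stood at -0.31, outside its main interval of 0.03 to 0.72. MRPL28 then stood at -0.40, outside its main interval of -0.28 to 0.17. The 95% interval of the fold change lay within 2-fold in both directions for 76 of the 77 members, MRPL12 being the exception, and within 1.5-fold for 59. It spanned 0 on the log2 scale for 67, lay above 0 for 6 and below 0 for 4. The leptin and control libraries did not overlap in 11 members, against 32.2% of all tested genes, 16.0% above and 16.2% below. In 3 of the 11 every leptin library lay above every control (MRPS16, MRPL34 and MRPS26), and in 8 it lay below (MRPL18, MRPS27, MRPS18C, MRPS28, MRPL35, MRPS35, MRPL9 and MRPS36). In bulk RNA, a change in the number of cells that express a gene and a change in RNA per cell cannot be told apart.

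**Figure D2:**
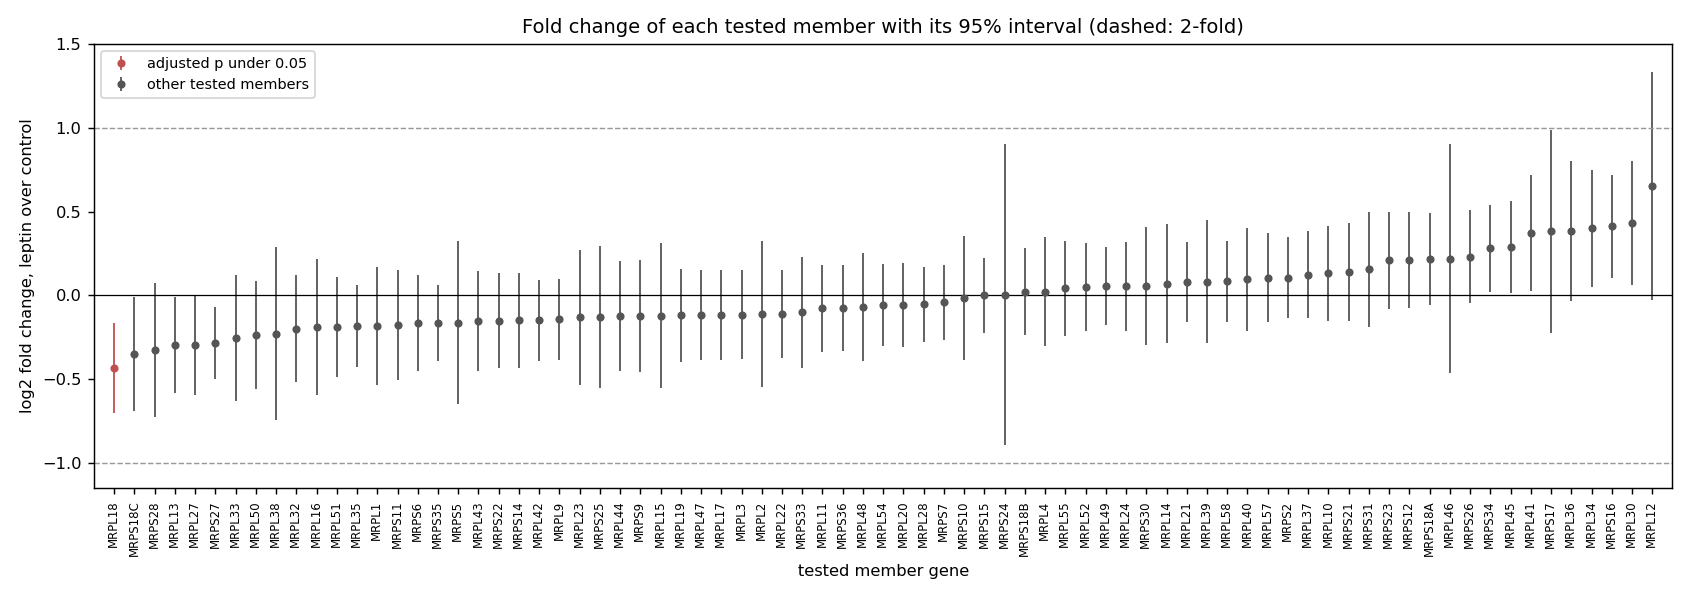
Log2 fold change, leptin over control, of each tested member with its 95% interval, ordered from low to high, with MRPL18 in red and dashed lines at a 2-fold change. The estimates run from -0.43 for MRPL18 to 0.65 for MRPL12, and 67 of the 77 intervals span 0.

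MRPL18 encodes a protein of the central protuberance of the large subunit. Its gene lies at chr6:159789812-159798436 on the plus strand (hg38). The level was 65.0, 50.9 and 64.6 CPM in leptin replicates 1 to 3, and 84.0, 75.4 and 84.6 CPM in control replicates 1 to 3. Each leptin library lay below each control. The means were 60.2 ± 8.01 CPM with leptin and 81.4 ± 5.16 CPM in controls (SD, n = 3 each). The log2 fold change was -0.43 ± 0.12 (SE), a ratio of 0.740, with a 95% interval from -0.70 to -0.17 and an edgeR adjusted p of 0.0471. The direction was the same in all 15 alternative analyses. The call was lost, with edgeR adjusted p of 0.0919, 0.0944, 0.203, 0.110 and 0.201, when leptin replicate 2 or 3 or control replicate 1, 2 or 3 was left out, after removal of the GC trend without and with a replicate block (0.0775 and 0.0646), with upper-quartile scaling (0.0505) and with limma-voom (adjusted p = 0.0513). Over all 15 the log2 fold change lay between -0.50 and -0.33.

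Directly beside MRPL18, 109 bases away by the starts in the files and transcribed the other way, starts TCP1, which encodes a subunit of the cytosolic chaperonin TRiC. TCP1 had 177, 175 and 170 CPM in leptin replicates 1 to 3, and 279, 247 and 283 CPM in control replicates 1 to 3. All leptin values lay below all control values, with a mean of 174 ± 3.62 CPM against 269 ± 19.7 CPM (SD, n = 3 each). The log2 fold change of TCP1 was -0.63 ± 0.11 (SE, edgeR adjusted p = 0.00768), and the adjusted p was 0.0717 without control replicate 1 and 0.0705 without control replicate 3. The start region that the 2 genes share is printed here because both lie lower with leptin. It covers chr6:159789562-159789861 on the plus strand (RefSeq, GRCh38.p14), 250 bases before the MRPL18 start to 50 after it, and 291 of its bases are also in the corresponding TCP1 window on the minus strand, which RefSeq counts from a TCP1 start other than that in the files. Capitals mark the 1 match to a heat shock element (GAANNTTC), which lies just after the start. This short motif is also in 5.56% of 15843 promoters of coding genes. A link between the match and the fold change of either gene was not tested.
MRPL18: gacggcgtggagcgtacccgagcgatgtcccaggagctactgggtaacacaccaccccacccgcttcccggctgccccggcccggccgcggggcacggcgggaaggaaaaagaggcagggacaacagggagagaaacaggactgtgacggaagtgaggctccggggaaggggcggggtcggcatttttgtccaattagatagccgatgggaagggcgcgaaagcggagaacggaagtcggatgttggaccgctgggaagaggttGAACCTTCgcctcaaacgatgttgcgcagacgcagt

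The 6 members with the largest positive fold changes did not pass the test. MRPL12, a protein of the flexible stalk that recruits translation factors and that is also known to bind the mitochondrial RNA polymerase, had 32.7, 79.4 and 77.6 CPM in leptin replicates 1 to 3, and 39.9, 45.7 and 35.0 CPM in control replicates 1 to 3. Leptin replicate 1 lay below all controls, and the other 2 leptin libraries lay well above them. The log2 fold change was 0.65 ± 0.30 (SE, edgeR adjusted p = 0.198). Of the MRPL12 exon bases, 69.5% are shared with an overlapping gene. Pairs over both genes were not counted, so the MRPL12 values come from the unshared part. The 0 counts of the overlapping gene were obtained under the same rule. MRPS16, a small-subunit protein shared with bacteria, had 136, 191 and 198 CPM with leptin and 129, 134 and 132 CPM in controls. Here each leptin library lay above each control, leptin replicate 1 by a small margin (log2 fold change 0.41 ± 0.14, SE, edgeR adjusted p = 0.0832).

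MRPL30, another large-subunit protein shared with bacteria, had 37.9, 63.7 and 53.3 CPM with leptin and 36.3, 36.8 and 41.6 CPM in controls (log2 fold change 0.43 ± 0.17, SE, edgeR adjusted p = 0.123). MRPL34 had 64.3, 67.4 and 99.9 CPM with leptin and 60.9, 59.3 and 55.4 CPM in controls (0.40 ± 0.16, edgeR adjusted p = 0.130). MRPL36, also shared with bacteria, had 32.9, 54.5 and 59.8 CPM with leptin and 38.6, 33.6 and 40.3 CPM in controls (0.39 ± 0.19, edgeR adjusted p = 0.217). In MRPL30 and MRPL36, leptin replicate 1 lay within the range of the controls or below it, whereas in MRPL34 the high value was that of leptin replicate 3. MRPS17 rested on 387 read pairs in all and did not pass (0.38 ± 0.28, SE, edgeR adjusted p = 0.405).

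On the negative side, besides MRPL18, stood MRPS18C, MRPS28, MRPL13, MRPL27 and MRPS27, none of which passed. MRPS27, a small-subunit protein of the pentatricopeptide repeat family, had 111, 106 and 106 CPM with leptin and 131, 128 and 134 CPM in controls. The 3 leptin values were close together and all below the controls (log2 fold change -0.28 ± 0.10, SE, edgeR adjusted p = 0.0869). MRPL27, shared with bacteria and placed near the peptidyl transferase centre, had 63.5, 44.04 and 56.7 CPM with leptin and 69.5, 63.2 and 69.1 CPM in controls (-0.30 ± 0.14, edgeR adjusted p = 0.184), with the 2 ranges overlapping slightly. MRPL13 had 42.4, 40.0 and 42.0 CPM with leptin and 58.7, 42.0 and 52.2 CPM in controls (-0.30 ± 0.13, edgeR adjusted p = 0.164). MRPS18C and MRPS28 were low, at most 12.003 CPM in any library, with log2 fold changes of -0.35 ± 0.16 and -0.33 ± 0.18 (SE, edgeR adjusted p of 0.170 and 0.271). For MRPS18C, 40.2% of the exon bases are shared with its neighbour ABRAXAS1.

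**Figure D3:**
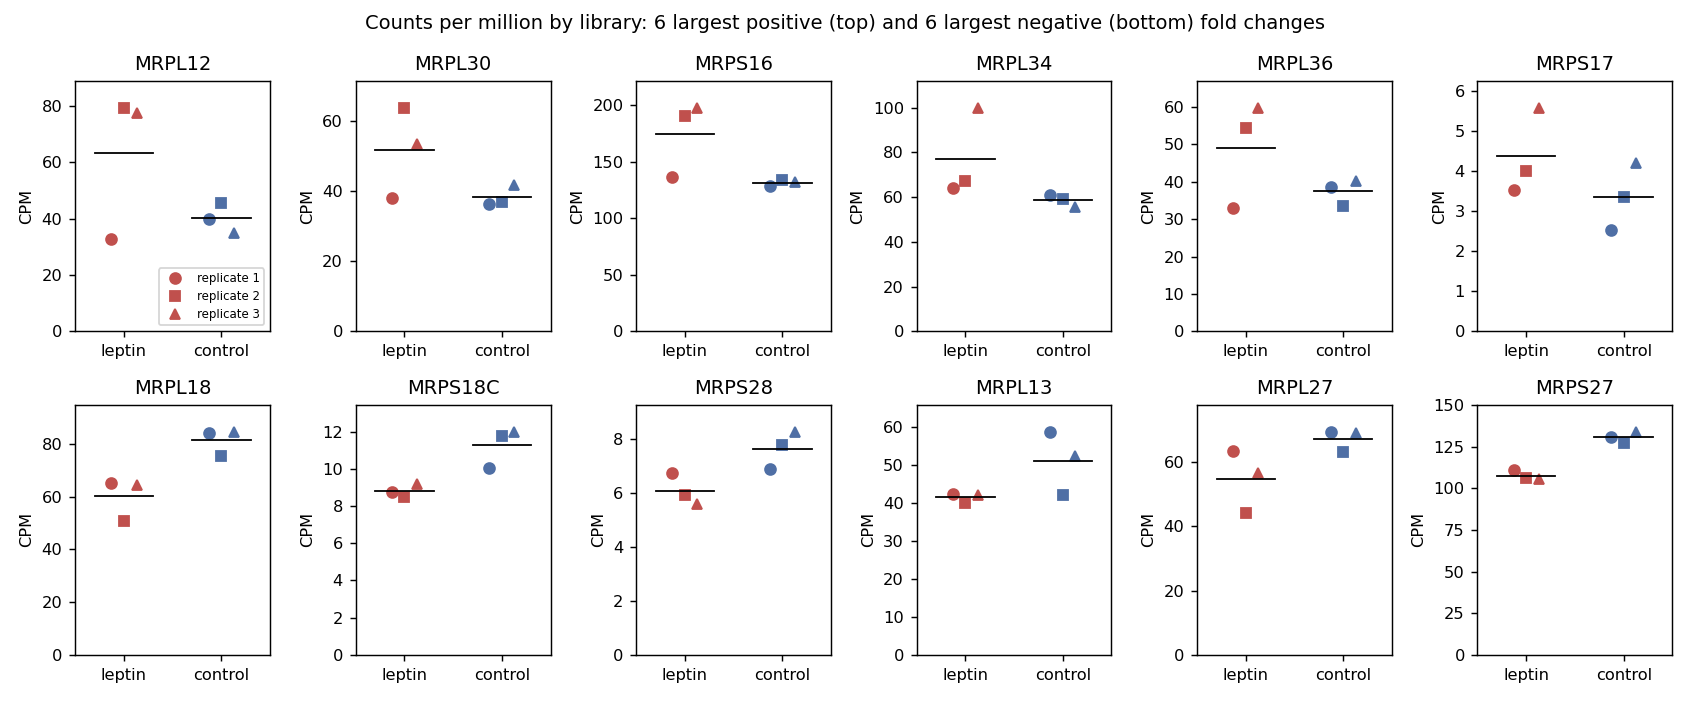
Level in CPM in each library for the 6 members with the largest positive (top row) and the 6 with the largest negative (bottom row) fold changes, leptin left and control right, with a line at each mean and a symbol for each replicate. In MRPL12 leptin replicate 1 lies at 32.7 CPM, below the controls, while the other leptin libraries lie at 79.4 and 77.6 CPM; in MRPL18 all leptin libraries lie below the controls.

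The leptin libraries differed among themselves. Measured against the control mean of each gene, the median log2 difference over the 77 members was -0.07 in leptin replicate 1, -0.09 in replicate 2 and 0.05 in replicate 3, and 22, 29 and 43 members were positive. These are 28.6%, 37.7% and 55.8% of the members, against 50.1%, 50.5% and 50.2% of all tested genes. In 28 of the 77 members, or 36.4%, leptin replicate 1 had the opposite sign to both other leptin libraries, as it did in 23.3% of all tested genes. Whether these shares differ was not tested. The summed level of all members was 3946, 4205 and 4696 CPM in leptin replicates 1 to 3, and 4213, 4080 and 4261 CPM in control replicates 1 to 3, with means of 4282 ± 381 and 4184 ± 93.6 CPM (SD, n = 3 each). The leptin libraries thus lay on both sides of the controls. The median SD of log2 CPM over the members was 0.20 among leptin libraries and 0.10 among controls, and over all tested genes it was 0.24 and 0.12.

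The count of calls turned on leptin replicate 1. Without it, 16 members passed edgeR's test, 11 higher and 5 lower, or 20.8%, while 29.6% of all tested genes passed, 16.0% higher and 13.5% lower. The 11 were MRPL12, MRPS16, MRPL36, MRPL30, MRPL41, MRPS34, MRPL34, MRPL45, MRPS23, MRPS12 and MRPS18A, and the 5 were MRPL18, MRPL27, MRPS27, MRPL50 and MRPL16. MRPL12 then stood at 0.96 on the log2 scale (edgeR adjusted p = 1.4e-05). Without any other single library 0 members passed. The share of all genes that passed was then 4.84% without leptin replicate 2, 1.66% without leptin replicate 3, and 0.711%, 2.25% and 1.05% without control replicates 1, 2 and 3.

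Calls were also counted by subunit and evolutionary class. Of the 30 large-subunit genes shared with bacteria, 1 passed (MRPL18), 10 had a positive log2 fold change and the median was -0.11. Of the 20 tested large-subunit genes found in mitochondria only, 0 passed, 12 were positive and the median was 0.06. The 16 small-subunit genes shared with bacteria and the 10 without a bacterial counterpart had 0 calls each, and medians of -0.03 and -0.04. At an unadjusted p under 0.05 the 4 classes held 4, 2, 2 and 2 genes in that order. Over all tested genes the shares were 9.81% called and 27.6% at an unadjusted p under 0.05. Without leptin replicate 1 the classes held 7, 4, 2 and 3 calls, where 29.6% of all genes were called. Differences between the classes were not tested.

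Fold change followed base composition in these libraries, and members were no exception. Over the 15249 tested genes with a known GC content (of the longest transcript), the Spearman correlation of log2 fold change with GC content was 0.39, and over the 77 members it was 0.43. These are correlations across genes that share the same 6 libraries, given as a description. Of the 39 members at or above the members' median GC content of 47.6%, 22 had a positive fold change, with a median of 0.04. Of the 38 below it, 11 did, with a median of -0.12. Among all tested genes split at the same GC content, the medians were 0.14 for the 8093 above and -0.11 for the 7156 below. After removal of each library's GC trend, 11 members had negative instead of positive fold changes and 9 the reverse, which left 31 of 77 positive. Among the members named above, MRPL41, MRPL36, MRPS34, MRPS26 and MRPL14 turned negative. MRPL28 was then the sole member called (log2 fold change -0.40, edgeR adjusted p = 0.0431), where 5.53% of all genes were called. With the replicate number as a block 8.31% of all genes passed, and with the block and GC removal together 6.01%, with MRPL30 then the sole member called (0.52, edgeR adjusted p = 0.0469). After GC removal without the block, the Spearman correlation with GC content was -0.34 over the members and 0.01 over all genes. Whether base composition had a part in the members' fold changes beyond this was not tested.

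**Figure D4:**
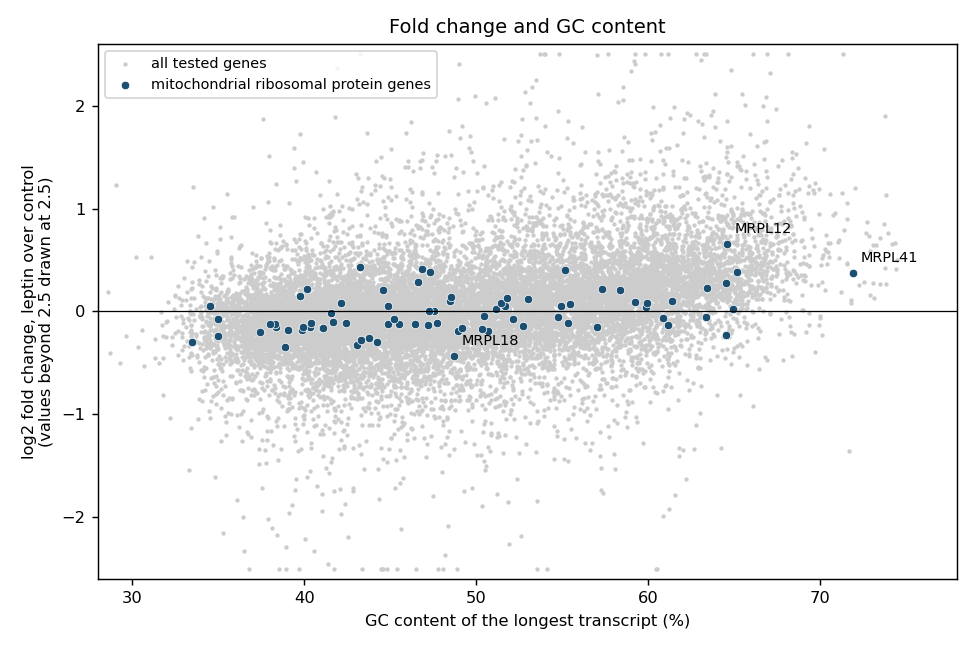
Log2 fold change, leptin over control, against GC content in percent for all tested genes with a known GC content (grey) and for the 77 members (dark points). Both are higher at higher GC content, with Spearman correlations of 0.39 over all genes and 0.43 over the members, and the members lie closer to 0 than many grey points at the same GC content.

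Some of these genes start near a gene on the opposite strand. In 19 pairs the starts of a member and such a protein-coding gene lay within 1000 bases, MRPS11 and MRPL46 being a pair of members. The genes pointed apart, except that MRPL43 and TWNK (gap -148 bases) and MRPL13 and MTBP (-2) overlapped at their starts. The widest gap was 990 bases, between MRPL54 and APBA3. The share of such pairs over all genes was not counted. Of the 18 pairs with both genes tested, 11 had fold changes of the same sign, 6 negative and 5 positive, with a Spearman correlation of 0.49 over pairs. Neither value was tested or computed for such pairs over all genes. The neighbour of MRPL32, PSMA2, was very low, with means of 0.37 CPM with leptin and 0.84 CPM in controls. Among the neighbours 3 passed edgeR's test, all lower with leptin, where 9.81% of all genes passed and 4.09% lower. They were TCP1, SKA3 and MTBP, and they are named because their values were seen to pass.

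SKA3, which encodes a kinetochore protein that holds spindle microtubules, had 39.8, 38.4 and 36.2 CPM with leptin and 58.6, 53.9 and 66.4 CPM in controls (log2 fold change -0.65 ± 0.11, SE, edgeR adjusted p = 0.00931). Its member neighbour MRPL57, 106 bases away, had a log2 fold change of 0.11 ± 0.12 (SE, edgeR adjusted p = 0.617). The SKA3 call was lost without leptin replicate 3 (edgeR adjusted p = 0.0516), control replicate 1 (0.0696) or control replicate 3 (0.0772). MTBP, which encodes a protein needed to fire replication origins, is the neighbour of MRPL13 and had 8.07, 7.15 and 7.72 CPM with leptin and 9.91, 15.8 and 11.6 CPM in controls (-0.70 ± 0.19, edgeR adjusted p = 0.0443). Its call was lost without leptin replicate 2 or 3 or any 1 control (edgeR adjusted p between 0.0882 and 0.184), and after removal of the GC trend (0.129).

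**Figure D5:**
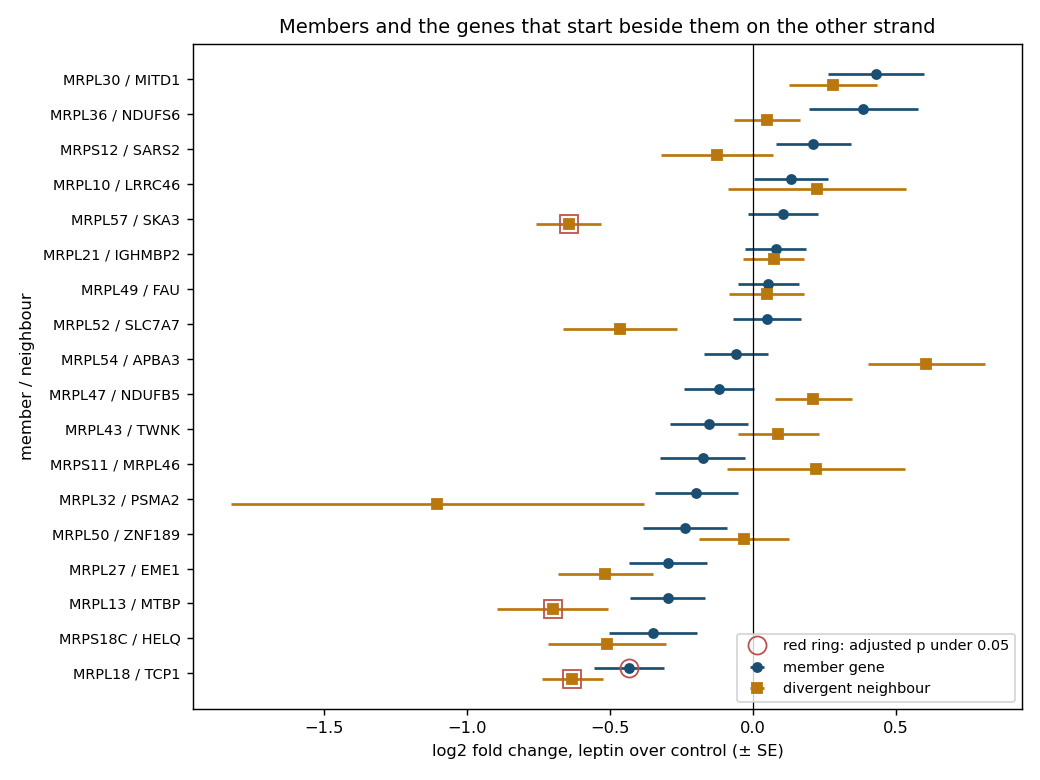
Log2 fold change, leptin over control, with its SE for the member (circle) and the divergent neighbour (square) in the 18 pairs with both genes tested, with red rings on genes that passed the test. MRPL18 and TCP1 both passed on the negative side, while SKA3 at -0.65 stands opposite MRPL57 at 0.11.

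Promoters of the members were searched for motifs of factors known to drive nuclear genes for mitochondrial proteins, and for a heat shock element. RefSeq start regions (GRCh38.p14, 250 bases before to 50 after the start) were found for 69 of the 78 members, and both strands were searched. The ETS-family motif CCGGAAG, bound by GABPA among others, was in 29 of the 69, or 42.0%, against 14.2% of 15843 promoters of coding genes. The YY1 motif AAGATGGC was in 20, or 28.99% against 3.91%. In 15 members (21.7%) it lay at or after the start, against 2.48% of all promoters. The NRF1 motif, GCGCA and GCGC with any 1 base between them, was in 8 members, 11.6% against 8.58%, and the heat shock element GAANNTTC in 6, 8.70% against 5.56%. These shares describe sequence and were not tested. The 15843 promoters were taken whether or not the gene was expressed here, unlike the members, nearly all of which were expressed. Shares in other gene families, such as cytosolic ribosomal proteins, were not counted, so the motifs cannot be called particular to the members. The YY1 motif contains ATG, and whether matches after the start are translation starts was not examined. RefSeq starts can differ from those in the annotation used for counting. The MRPS27 window reaches up to position 72320490 on the minus strand, whereas the counted gene starts at 72321717.

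Fold changes of members with and without each motif were set side by side, without a test. The median log2 fold change was -0.06 over 28 tested members with the ETS motif and -0.02 over 40 without it. It was -0.03 over 20 with the YY1 motif and -0.06 over 48 without, and 0.09 over 8 with the NRF1 motif and -0.06 over 60 without. For the heat shock element it was -0.14 over 6 with it and -0.01 over 62 without. MRPL18, the called member, is itself among the 6, and a link between this motif and the fold change was not tested. Start regions of 4 members that hold a match are printed, from both ends of the fold change order, with matches in capitals. Among the 6 largest positive fold changes, MRPL12, MRPL34 and MRPS17 held no match, and MRPL36 held an NRF1 and a YY1 match. On the negative side MRPS18C held an ETS match, and no start region was found for MRPL13 and MRPS28. MRPL30 (chr2:99180934-99181233, plus strand) holds an ETS and an NRF1 match, MRPS16 (chr10:73252595-73252894, minus strand) an ETS match, MRPL27 (chr17:50373135-50373434, minus strand) 2 ETS matches, and MRPS27 (chr5:72320191-72320490, minus strand) a YY1 match after the start.
MRPL30: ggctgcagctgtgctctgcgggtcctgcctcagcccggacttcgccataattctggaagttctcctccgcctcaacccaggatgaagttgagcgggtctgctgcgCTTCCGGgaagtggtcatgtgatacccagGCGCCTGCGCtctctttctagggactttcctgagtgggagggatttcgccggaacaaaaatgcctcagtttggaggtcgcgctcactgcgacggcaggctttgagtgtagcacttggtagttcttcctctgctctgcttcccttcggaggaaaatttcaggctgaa
MRPS16: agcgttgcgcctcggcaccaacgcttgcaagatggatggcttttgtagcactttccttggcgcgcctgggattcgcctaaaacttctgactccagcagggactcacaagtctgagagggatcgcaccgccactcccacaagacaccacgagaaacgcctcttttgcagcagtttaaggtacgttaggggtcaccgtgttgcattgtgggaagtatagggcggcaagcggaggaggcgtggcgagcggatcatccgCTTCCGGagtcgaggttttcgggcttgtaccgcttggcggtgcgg
MRPL27: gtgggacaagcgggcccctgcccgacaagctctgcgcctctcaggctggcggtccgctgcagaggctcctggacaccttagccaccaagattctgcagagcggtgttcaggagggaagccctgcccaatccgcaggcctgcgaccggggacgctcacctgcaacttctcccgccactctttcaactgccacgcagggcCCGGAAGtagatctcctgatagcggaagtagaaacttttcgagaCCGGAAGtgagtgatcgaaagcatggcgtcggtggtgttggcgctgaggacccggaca
MRPS27: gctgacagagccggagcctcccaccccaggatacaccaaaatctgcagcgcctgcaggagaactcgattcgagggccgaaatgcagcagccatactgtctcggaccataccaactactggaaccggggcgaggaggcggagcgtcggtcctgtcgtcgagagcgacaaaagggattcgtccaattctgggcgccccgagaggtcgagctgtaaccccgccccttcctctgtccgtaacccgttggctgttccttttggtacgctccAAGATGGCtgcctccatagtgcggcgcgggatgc

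Genes that act with the mitochondrial ribosome were read against the same background, 9.81% of all tested genes. The share was 27.6% at an unadjusted p under 0.05 in edgeR, 14.2% with DESeq2 and 8.39% with limma-voom. The 5 subunits that carry other symbols had 0 calls and 0 at an unadjusted p under 0.05 in edgeR, and 0 calls with DESeq2 and limma-voom. DAP3, a GTP-binding small-subunit protein also studied in apoptosis, stood at -0.09 on the log2 scale, leptin over control (edgeR adjusted p = 0.637), and that of PTCD3, a pentatricopeptide repeat protein gene, was -0.20 (edgeR adjusted p = 0.304). CHCHD1 stood at 0.06 (edgeR adjusted p = 0.807). AURKAIP1, at 595 TPM, and GADD45GIP1, at 509 TPM, were as abundant as the top members and stood at 0.14 and 0.22 (edgeR adjusted p of 0.520 and 0.318). After removal of the GC trend, AURKAIP1 stood at -0.38 (edgeR adjusted p = 0.0453).

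Of 33 tested genes on the list for ribosome assembly and ribosomal RNA modification, 1 passed and was lower with leptin, FASTKD5. FASTKD5 is on this list although it encodes a mitochondrial RNA-binding protein that processes messenger RNAs. It had 22.5, 18.2 and 18.9 CPM with leptin and 29.998, 25.2 and 30.3 CPM in controls (log2 fold change -0.52 ± 0.14, SE, edgeR adjusted p = 0.0376). Of 23 translation factors 0 passed in edgeR, with 3 at an unadjusted p under 0.05, 1 with DESeq2 and 0 with limma-voom. Over all tested genes the last 3 shares were 27.6%, 14.2% and 8.39%. TUFM, the elongation factor that brings transfer RNAs to the ribosome, stood at 0.24 (edgeR adjusted p = 0.209). Of 14 tested genes of mitochondrial transcription and its regulators, 1 passed and was higher with leptin, ESRRA, a nuclear receptor that activates nuclear genes for mitochondrial proteins. ESRRA had 73.1, 105 and 119 CPM with leptin and 65.0, 70.6 and 59.5 CPM in controls (0.61 ± 0.16, edgeR adjusted p = 0.0413). TFAM, NRF1 and GABPA stood at 0.03, -0.05 and -0.05 and did not pass. The FASTKD5 and ESRRA calls were both lost when any library but leptin replicate 1 was left out (highest edgeR adjusted p 0.182 and 0.194), and after removal of the GC trend (0.0754 and 0.245, ESRRA then at 0.25). ESRRA was also not called by limma-voom (adjusted p = 0.0560). Without leptin replicate 1, the 4 lists held 1, 5, 5 and 2 calls in the order given, of 5, 33, 23 and 15 tested, where 29.6% of all genes were called.

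Calls in other large families were set beside those of the members, where 9.81% of all tested genes passed. Of all tested genes, 27.6% lay at an unadjusted p under 0.05 in edgeR. DESeq2 called 14.2% of them and limma-voom 8.39%. Of 77 tested cytosolic ribosomal protein genes 0 passed in edgeR, with 6 at an unadjusted p under 0.05, 2 calls with DESeq2 and 0 with limma-voom. Their median log2 fold change was 0.09, with 54 of 77 positive, where 33 of the 77 mitochondrial ribosomal protein genes were positive. Of 78 tested nuclear subunits of the respiratory chain and ATP synthase 0 passed, with 11 at an unadjusted p under 0.05, 5 calls with DESeq2 and 0 with limma-voom, and the median was -0.04. Without leptin replicate 1 edgeR called 19 cytosolic ribosomal protein genes (24.7%) and 23 respiratory chain genes (29.5%), against 29.6% of all genes. Without a filter on low counts it called 5 and 8, where 7.42% of all genes were called. With the replicate block it called 0 and 3, where 8.31% were called. The differences between families were not tested.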

How the data were processed

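RNA of 3 leptin and 3 control libraries was sequenced as paired ends from a directional kit, per the labels' protocols. The deposited values are raw counts of read pairs for each gene. The authors counted with featureCounts 2.0.1, per the file headers, over exons of GENCODE 44, without strand and without multi-mapping read pairs or pairs over several genes, which lowers counts of overlapping genes and genes with near-identical copies. HISAT2 2.0.5, featureCounts 1.5.0-p3, the hg38 build and DESeq2 are listed in the submitters' processing notes.

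The 62700 gene IDs were matched to symbols, and a gene type was found for 58600 of them. Leptin and control libraries were compared with edgeR 4.0.16 in R 4.3.3 (minimum count 10, minimum total 15, TMM, robust quasi-likelihood fit, no replicate block, Benjamini-Hochberg threshold 0.05) over 15685 genes. CPM used TMM-scaled totals, and TPM used the exon lengths in the files. The scripts were tested on simulated data. Counts of same-group libraries differed beyond sampling noise. Alternatives were other scalings and filters, DESeq2 1.42.0, limma-voom (limma 3.58.1), a replicate block, removal of a GC trend (lowess, span 0.3) and each library left out.

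Members and gene lists were chosen with earlier results of these data known. Genes were named by a rule: each called member, the 6 largest fold changes in each direction, the 5 highest and 5 lowest levels, untested members, the 5 subunits with other symbols, and called genes of related lists. Others were named after their values were seen.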

Additional observations from a re-analysis of the deposited data

How the results depend on the processing

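Between 0 and 16 members passed across the alternatives, where the main analysis had 1. There were 0 with upper-quartile scaling, 4 without a filter on low counts (MRPL18, MRPS16, MRPL30 and MRPL34), 2 with DESeq2, 0 with limma-voom, and 0 to 16 with 1 library left out. Members higher with leptin numbered 0 in the main analysis, 3 without a filter, 1 with DESeq2, 1 with the replicate block and GC removal (MRPL30), and 0 to 11 with 1 library left out. Members lower numbered 1 in the main analysis, 0 with upper-quartile scaling, 0 with limma-voom, 0 with the replicate block and GC removal, and 0 to 5 with 1 library left out. Over all genes 1538 passed, against 2437 without a filter, 868 after GC removal, 942 with the replicate block and GC removal, and 115 to 4761 with 1 library left out. In the related lists 2 passed, against 4 without a filter, 4 with DESeq2, 1 with limma-voom, 1 with the replicate block and GC removal, and 0 to 13 with 1 library left out. The members' median log2 fold change lay between -0.11 and -0.01 over the leave-outs.

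Whether replicate numbers pair the samples is not stated in the labels. Correlations of same-numbered deviations from the group means were -0.05, 0.01 and -0.11. They show no shared replicate effect, but with 3 libraries in each group they cannot decide whether the libraries were paired. With the replicate block 1303 genes passed, and MRPL18 was the 1 member called (edgeR adjusted p = 0.0470). MTBP had an adjusted p of 0.0623 with the block and 0.0662 with limma-voom.

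Of the 77 members, 40 kept their sign in all 15 alternatives and 26 turned in at least 1 leave-out. With the GC trend removed, 11 turned negative and 9 positive, and with the block added 11 and 8. The genes given here are those among the genes named by the rule above that turned, none of them past the threshold in the main analysis. Other members that turned, such as MRPS36, MRPL16, MRPL15 and MRPL23, are not listed. With GC removal alone, and with the block added, MRPL36 stood at -0.059 and -0.066, MRPL41 at -0.31 and -0.31, MRPL14 at -0.022 and -0.046, MRPS26 at -0.12 and -0.13, MRPS34 at -0.11 and -0.11, AURKAIP1 at -0.38 and -0.38, and GADD45GIP1 at -0.012 and -0.022. Over the leave-outs, MRPL14 ranged from -0.17 to 0.18, MRPS25 from -0.31 to 0.032, MRPS24 from -0.30 to 0.38, MRPS5 from -0.42 to 0.048 and CHCHD1 from -0.074 to 0.16. With upper-quartile scaling MRPS24 stood at -0.0067. The cause of these changes was not tested. Low counts limit MRPS24, MRPS17 and MRPL46, with 205, 387 and 400 read pairs in all, and MRPL53, with 0. These genes share 23.25%, 25%, 11.3% and 99.4% of their exon bases with other genes, in that order. Pairs over several genes were not counted, and the part of depth and of this rule in the low counts was not tested.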

Other observations

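Beside the 78 coding genes, 88 genes with the same symbol prefix are pseudogenes or other non-coding genes. Of these 30 had a count, 3335 read pairs in all, and 4 were tested. None of the 4 passed edgeR's test. MRPL20-AS1, which is transcribed antisense to MRPL20 and cannot be fully told apart from it in counts made without strand, had 29.3, 20.9 and 33.7 CPM in leptin replicates 1 to 3, and 21.5, 18.0 and 17.4 CPM in control replicates 1 to 3. Its log2 fold change was 0.56 ± 0.17 (SE, edgeR adjusted p = 0.0652). MRPL20-DT stood at 0.36 (edgeR adjusted p = 0.379), MRPS30-DT, with 91 read pairs in all, at -0.77 (edgeR adjusted p = 0.416) and MRPL45P2 at -0.05 (edgeR adjusted p = 0.944).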
